A study of Mus musculus with 12 samples.

Results

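The Reg family and Nupr1, genes known for their induction in the injured exocrine pancreas, were followed in whole mouse pancreatic tumours. The members were Reg1, Reg2, Reg3a, Reg3b, Reg3d, Reg3g, Reg4 and Nupr1, and every probe that the platform annotation gives to 1 of these 8 genes was taken. The members are 8 of the 19057 genes that a probe of the array names, and they have 9 of its 45281 probes, with 2 probes for Reg3b and 1 for each other gene. The probes were taken by gene name, and the members were listed with earlier results of these data known.

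The study profiled adult female C57BL/6J mice in which syngeneic pancreatic ductal adenocarcinoma lines, mixed with Matrigel, had been implanted in the pancreas. Once tumours were established, the mice received vehicle (Vehicle, 4 samples) or a compound against the receptor for colony-stimulating factor 1 (CSF1Ri, 5 samples). Both were given in the chow and for 8 days. All 9 samples came from the same kind of implant, and no pancreas without a tumour was among them. The tumours were perfused and collagenase-digested before RNA was extracted. The tumours were read on 12 Illumina BeadArrays, because Vehicle 1, Vehicle 3 and CSF1Ri 1 each have a second array, taken from the titles as a repeat hybridisation and averaged with the first. The sources used here name neither the compound nor its dose, and do not count the tumour cell lines. The labels number the samples of a group without saying that each is a separate animal, so the p-values measure the spread between these samples.

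Reg proteins are small secreted proteins with a C-type lectin fold, made in quantity by pancreatic acinar cells, by regenerating pancreas and by the gut. Several are acute phase proteins of the pancreas, raised in pancreatitis together with cytokine signalling through STAT3, and some bind bacteria. Nupr1, first found in rat pancreas with acute pancreatitis, encodes a small nuclear protein induced by cell stress in many cell types. Acinar cells also make the digestive enzymes, among them Cpa1 (carboxypeptidase A1) and Ctrb1 (chymotrypsinogen B1), which served here as the measure of acinar RNA in each tumour.

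Of the 7 Reg genes, 6 lie next to each other on mouse chromosome 6, in the order Reg3b, Reg3d, Reg3a, Reg2, Reg1 and Reg3g, with no other protein-coding gene between them in the RefSeq annotation of GRCm38.p6. Reg4 lies on chromosome 3 and Nupr1 on chromosome 7. The windows from 250 bases before to 50 after the start of transcription are shown for the 4 genes whose probes were brightest and moved together over the tumours, since their levels are the main result. They are from RefSeq on GRCm38.p6, on the strand of the gene (+ for all 4), and the capitals mark TATAAA and CACCTG on either strand, the former read as TTTATA on the opposite strand. The windows lie at chr6:78425733-78426032 for Reg1, chr6:78404905-78405204 for Reg2, chr6:78380459-78380758 for Reg3a and chr6:78370635-78370934 for Reg3b.
Reg1: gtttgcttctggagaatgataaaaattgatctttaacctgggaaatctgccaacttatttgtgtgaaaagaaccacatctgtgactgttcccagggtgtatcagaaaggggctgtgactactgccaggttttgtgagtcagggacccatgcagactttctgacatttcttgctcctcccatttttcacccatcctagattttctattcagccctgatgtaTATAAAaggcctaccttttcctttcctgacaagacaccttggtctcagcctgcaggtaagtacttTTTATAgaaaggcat
Reg2: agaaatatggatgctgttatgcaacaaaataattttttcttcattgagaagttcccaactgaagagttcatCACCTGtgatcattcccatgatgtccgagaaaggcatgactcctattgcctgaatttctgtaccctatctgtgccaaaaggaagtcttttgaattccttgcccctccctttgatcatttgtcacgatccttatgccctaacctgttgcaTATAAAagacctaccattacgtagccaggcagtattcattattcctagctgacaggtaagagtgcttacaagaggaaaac
Reg3a: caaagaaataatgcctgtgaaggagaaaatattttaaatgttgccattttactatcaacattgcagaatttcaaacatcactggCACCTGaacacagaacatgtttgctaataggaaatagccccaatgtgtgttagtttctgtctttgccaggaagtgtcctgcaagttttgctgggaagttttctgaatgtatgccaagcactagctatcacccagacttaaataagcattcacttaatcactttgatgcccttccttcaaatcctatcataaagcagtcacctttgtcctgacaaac
Reg3b: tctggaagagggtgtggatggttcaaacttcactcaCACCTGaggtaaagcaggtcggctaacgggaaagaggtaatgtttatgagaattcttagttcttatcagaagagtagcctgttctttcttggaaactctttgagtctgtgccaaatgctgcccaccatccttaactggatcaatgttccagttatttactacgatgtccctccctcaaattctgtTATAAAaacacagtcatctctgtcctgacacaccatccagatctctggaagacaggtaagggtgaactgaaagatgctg
TATAAA, the usual letters of a TATA box, began 30 bases before the start in Reg1 and Reg2 and 29 before it in Reg3b. On both strands it was held by the windows of Reg1, Reg2, Reg3b and Reg3g, and by 13.6% of the 32851 windows of the same length in the table. CACCTG, a form of CANNTG (the E-box), was searched for after the windows had been read. It stood in the windows of Reg2, Reg3a, Reg3b, Reg3d and Reg4, against 20.2% of all windows. CANNTG, which includes it, was in all 8 members' windows and in 72.3% of all. The STAT palindrome TTCNNNGAA was in the windows of Reg3b, Reg3d and Nupr1, against 8.30% of all. These matches describe letters in a window and are not shown to be sites.

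Levels below are normalised log2 intensities, so that a difference of 1 is a doubling, and groups are given as mean ± SD with n = 4 Vehicle and n = 5 CSF1Ri tumours. A probe counted as detected on an array when its detection p-value was under 0.05. It was tested when 4 or more tumours had it detected on all of their arrays, which left 16606 probes, 8 of them members. Levels of different probes are not set against each other, since probes differ in how well they bind. Between 16219 and 17847 probes were detected per array. The arrays fell into 6 dimmer and 6 brighter ones by their mean intensity, each set with both groups, and values within each set are given beside the pooled ones. One tumour, CSF1Ri 1, stood apart: the mean over 21 acinar enzymes was 5.22 there, and between 7.78 and 12.70 in the other 8 tumours. Of these 21 enzymes, 10 were detected on both of its arrays. Results that rest on this tumour are therefore also given without it, except those within each set of arrays. In whole tumours, fewer cells of a type and less RNA per cell cannot be told apart.

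The reference enzymes were lower on average in CSF1Ri tumours, but the groups overlapped. Cpa1 (ILMN_2670847) read 12.00, 12.67, 12.23 and 10.38 in Vehicle 1 to 4 and 4.89, 11.19, 10.25, 7.61 and 12.78 in CSF1Ri 1 to 5. Ctrb1 (ILMN_2919377) read 13.41, 13.48, 13.27 and 11.73 in Vehicle and 5.28, 12.56, 11.24, 8.96 and 14.03 in CSF1Ri. Both the lowest and the highest tumour, CSF1Ri 1 and CSF1Ri 5, were treated. The log2 fold changes, CSF1Ri minus Vehicle, were -2.48 (SE 1.34, limma adjusted p = 0.756) and -2.56 (SE 1.45, adjusted p = 0.780), and neither passed the test.

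The pancreatic Reg genes Reg1 and Reg2 were likewise lowest in CSF1Ri 1 and highest in CSF1Ri 5. Reg1 (Entrez Gene 19692, ILMN_2592415), the lithostathine secreted with pancreatic juice, read 13.83, 13.85, 13.91 and 12.48 in Vehicle 1 to 4. In CSF1Ri 1 to 5 it read 9.25, 13.30, 13.07, 11.15 and 14.27. The Vehicle tumours thus lay inside the treated range of Reg1. The group means were 13.51 ± 0.69 and 12.21 ± 2.00, a difference of -1.31 (2.47-fold, SE 0.87, 95% interval -3.23 to 0.62, limma adjusted p = 0.844). Without CSF1Ri 1 the Reg1 difference was -0.57 (SE 0.59, adjusted p = 0.999).

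Reg2 (Entrez Gene 19693, ILMN_2612268), a mouse Reg gene studied in acinar cells and in islet regeneration, read 13.66, 13.26, 13.33 and 11.54 in Vehicle. In CSF1Ri it read 5.09, 12.60, 11.39, 9.36 and 13.89. CSF1Ri 1 lay near the limit of detection, and the groups overlapped because CSF1Ri 5 was above every Vehicle tumour. The means of 12.94 ± 0.96 and 10.46 ± 3.44 differed by -2.48 (5.58-fold, SE 1.46, 95% interval -5.72 to 0.76, limma adjusted p = 0.797). Without CSF1Ri 1 the difference was -1.14 (SE 0.85, adjusted p = 0.985).

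The Reg3 genes are the group with pancreatitis-associated and bacteria-binding proteins. Reg3a (Entrez Gene 19694, ILMN_1240824), whose human namesake is a bactericidal lectin, read 12.82, 12.09, 12.44 and 10.62 in Vehicle and 4.69, 11.52, 10.11, 8.45 and 13.19 in CSF1Ri. It was undetected on both arrays of CSF1Ri 1, so its value there is an upper bound. The treated tumours again spanned the Vehicle range, from the lowest value to the highest. The means, 11.99 ± 0.96 and 9.59 ± 3.25, differed by -2.40 (5.27-fold, SE 1.39, 95% interval -5.47 to 0.68, limma adjusted p = 0.788), and by -1.17 (SE 0.88) without CSF1Ri 1.

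Reg3b (Entrez Gene 18489), the pancreatitis-associated protein of the mouse, was read by a bright and a dim probe. On the bright probe (ILMN_2887421) it stood at 14.10, 13.75, 14.02 and 11.95 in Vehicle and at 8.57, 13.43, 12.67, 10.81 and 14.29 in CSF1Ri. This probe was detected on all 12 arrays, and its lowest and highest tumours were CSF1Ri 1 and CSF1Ri 5. The means of 13.46 ± 1.01 and 11.95 ± 2.29 differed by -1.50 (2.83-fold, SE 1.02, 95% interval -3.75 to 0.75, limma adjusted p = 0.851), and by -0.66 (SE 0.71) without CSF1Ri 1. On the dim probe (ILMN_2705804) Reg3b read 6.10, 4.70, 5.83 and 5.23 in Vehicle and 4.32, 4.54, 4.42, 4.48 and 6.70 in CSF1Ri. The dim probe was detected on 5 of 6 Vehicle arrays but on 1 of 6 CSF1Ri arrays, that of CSF1Ri 5. It was tested only because 3 Vehicle tumours and CSF1Ri 5 reached the detection rule, and its difference was -0.57 (SE 0.48, limma adjusted p = 0.909). The 2 Reg3b probes disagree on how far the gene varied, by 5.73 on the log2 scale between lowest and highest tumour against 2.38, and 1 of them is near background in most tumours. The files give no transcript for either probe.

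Reg3d (Entrez Gene 30053, ILMN_1216378), the mouse counterpart of the hamster islet neogenesis-associated protein, read 9.89, 8.47, 8.88 and 7.01 in Vehicle. In CSF1Ri it read 4.27, 7.51, 6.31, 4.75 and 10.09, with CSF1Ri 1 and CSF1Ri 4 undetected. Apart from CSF1Ri 5 and CSF1Ri 2, the treated tumours lay under every Vehicle tumour. The means, 8.56 ± 1.20 and 6.59 ± 2.34, differed by -1.98 (3.93-fold, SE 1.06, 95% interval -4.33 to 0.38, limma adjusted p = 0.754), and by -1.40 (SE 1.01) without CSF1Ri 1.

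Reg3g (Entrez Gene 19695, ILMN_2662934), a lectin that kills Gram-positive bacteria in the mouse gut, read 7.54, 5.92, 7.23 and 5.77 in Vehicle and 4.55, 5.60, 4.93, 5.03 and 8.23 in CSF1Ri. Here 4 of the 5 treated tumours lay below every Vehicle tumour, and CSF1Ri 5 lay above them all. The means of 6.61 ± 0.90 and 5.67 ± 1.48 differed by -0.95 (SE 0.70, 95% interval -2.49 to 0.60, limma adjusted p = 0.880), and by -0.67 (SE 0.71) without CSF1Ri 1. Reg4 (Entrez Gene 67709, ILMN_2623499), a Reg gene of the gut outside the cluster, was detected on 0 of 12 arrays and was not tested. Its readings, 4.20 to 4.36 in Vehicle and 4.23 to 4.62 in CSF1Ri, are background values.

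**Figure D1:**
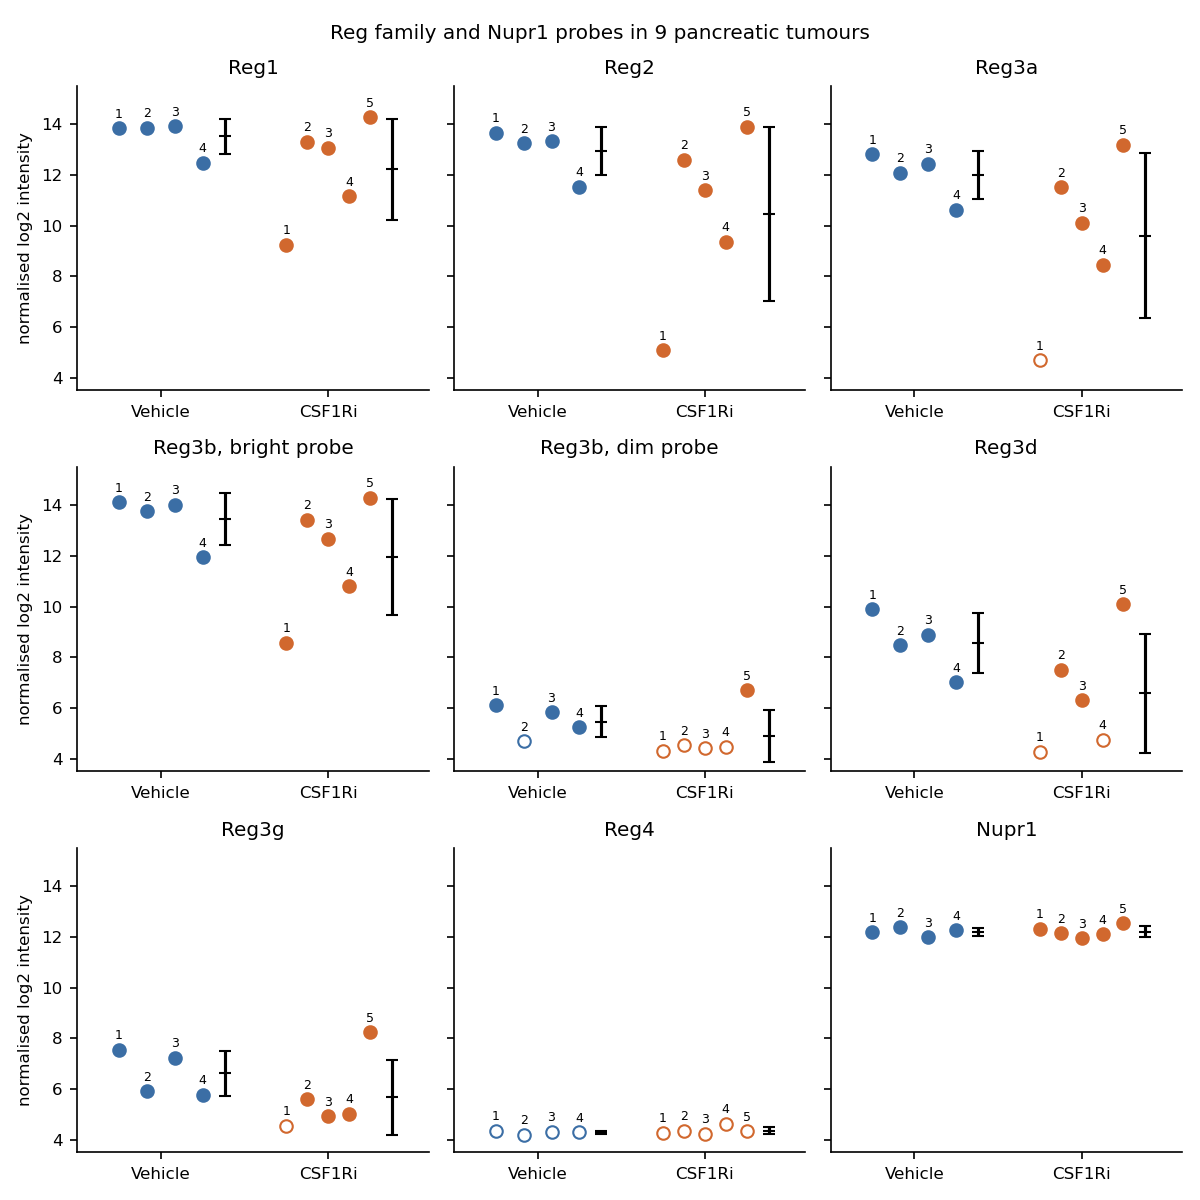
Normalised log2 intensity (y axis) of the 9 Reg and Nupr1 probes in Vehicle (blue, n = 4) and CSF1Ri (orange, n = 5) tumours, numbered by replicate. Open points were not detected on every array of the tumour, and the bars beside each group are mean ± SD. The Reg probes other than Reg4 are lowest in CSF1Ri 1 and highest in CSF1Ri 5, and Nupr1 keeps within 11.94 to 12.55.

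Nupr1 did not share this spread. Nupr1 (Entrez Gene 56312, ILMN_2742042) read 12.19, 12.37, 11.98 and 12.26 in Vehicle and 12.31, 12.14, 11.94, 12.10 and 12.55 in CSF1Ri. Its highest tumour was CSF1Ri 5, its lowest CSF1Ri 3, and CSF1Ri 1 lay among the others. The means of 12.20 ± 0.16 and 12.21 ± 0.23 differed by 0.01 (SE 0.14, 95% interval -0.31 to 0.32, limma adjusted p = 0.999), and the sign turned without CSF1Ri 1 (-0.02). The whole range over the 9 tumours was 0.61, at the 34.5th percentile of the ranges of all kept probes. The ranges of the 7 kept Reg probes, from 2.38 to 8.80, were at the 97.8th percentile or above.

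In all, 0 of the 8 tested member probes passed the limma test between the groups, where 0.145% of the 16606 kept probes did (24, all lower in CSF1Ri). At an unadjusted p under 0.05 the members also gave 0, against 7.58% of all kept probes. The groups overlapped on every member probe, and were apart on 2.82% of all. The member median was -1.40 (-0.66 without CSF1Ri 1), and the median of all kept probes 0.01. Without CSF1Ri 5, the treated tumour with the highest Reg levels, the differences were -1.82 for Reg1, -3.34 for Reg2 (10.1-fold), -3.30 for Reg3a and -2.09 for the bright Reg3b probe. They were -2.85 for Reg3d (7.22-fold, 95% interval -4.56 to -1.15), -1.59 for Reg3g (-2.50 to -0.67) and -1.03 for the dim Reg3b probe (-1.63 to -0.42). Without that tumour the unadjusted intervals of 6 of the 8 member probes lay below 0, and 0 passed the test after adjustment (smallest limma adjusted p = 0.403). In the same fit, 521 of the 16606 kept probes were lower and 600 higher at an unadjusted limma p under 0.05. CSF1Ri 5 was picked by its Reg levels and the Reg probes correlate with each other, so these intervals are a description. The 95% intervals of the 4 brightest Reg probes reach from more than 3 log2 units lower to 0.62 or more higher. Within the dimmer arrays the differences were -1.97 for Reg1, -3.77 for Reg2, -3.59 for Reg3a, -2.39 for the bright Reg3b probe, -2.95 for Reg3d and -1.66 for Reg3g. Within the brighter arrays they were -1.86, -3.35, -3.26, -2.14, -2.32 and -1.12 in the same order. CSF1Ri 1 is in both sets, and 0 member probes passed the test in either.

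**Figure D2:**
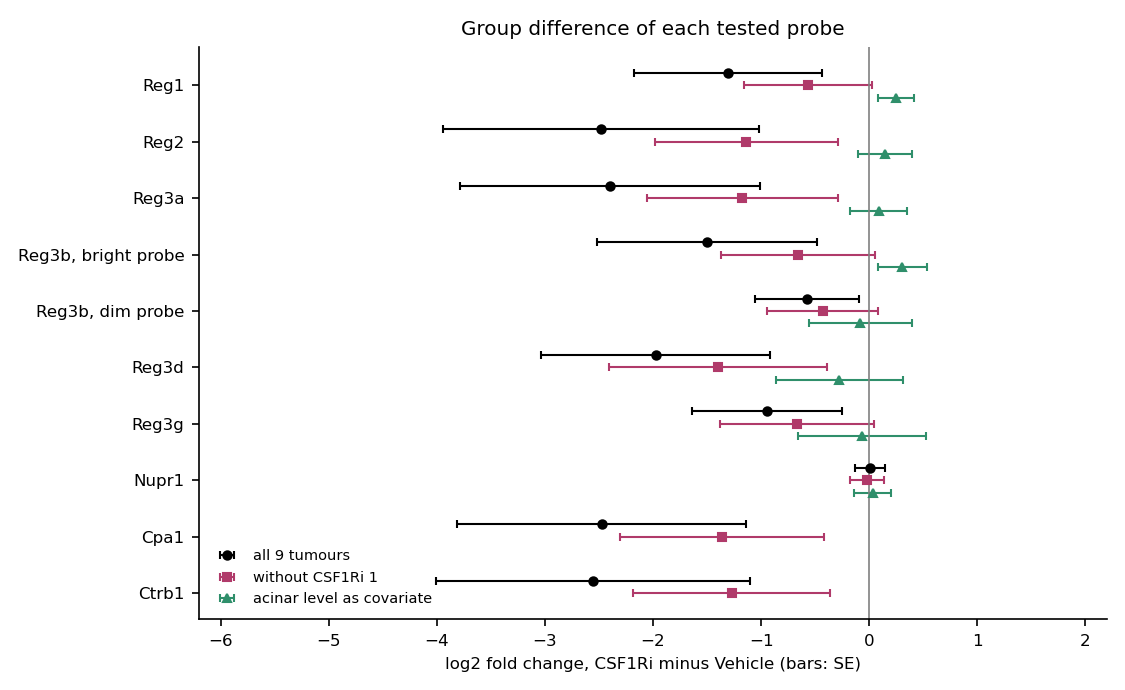
Log2 fold change, CSF1Ri minus Vehicle (x axis), of the 8 tested member probes and of Cpa1 and Ctrb1, with bars of 1 SE. Black circles use all 9 tumours, squares leave out CSF1Ri 1, and triangles hold the acinar level as a covariate. The Reg differences shrink without CSF1Ri 1 and lie between -0.28 and 0.31 with the covariate.

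The levels of the Reg genes were then set against the acinar enzymes of the same tumour. Over the 9 tumours, Pearson's r was 0.991 between Reg1 and Cpa1 (Spearman's rho 0.967) and 0.990 between Reg1 and Ctrb1 (rho 0.933). For Reg2, r was 0.986 with Cpa1 and 0.997 with Ctrb1 (rho 0.933 and 0.950), and for Reg3a 0.985 and 0.995 (rho 0.933 and 0.950). The bright Reg3b probe gave r of 0.984 and 0.985 (rho 0.917 and 0.933). All 8 of these relations passed the exact permutation test over all pairings of 9 tumours, with two-sided p adjusted over the 16 relations tested between 7.35e-05 and 0.000172 for r and between 0.00133 and 0.00191 for rho.

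The dimmer Reg probes followed the enzymes less tightly by value, and this difference between probes was not tested. Reg3d gave r of 0.918 and 0.908 (rho 0.933 and 0.950) and Reg3g 0.751 and 0.754 (rho 0.900 and 0.917), with exact permutation adjusted p of 0.000172 or 7.35e-05 and 0.0225 or 0.0194 for r. The dim Reg3b probe gave r of 0.630 and 0.639 (exact permutation adjusted p = 0.0693 and 0.0650), and its rho of 0.833 and 0.850 passed the test (adjusted p = 0.00945 and 0.00748). For Nupr1 r was 0.109 and 0.085 (rho 0.400 and 0.450), and neither passed (exact permutation adjusted p = 0.823 and 0.823 for r).

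The 2 tumours farthest from the median acinar level were CSF1Ri 1 and CSF1Ri 4. With both left out (n = 7), r with Cpa1 and Ctrb1 was 0.928 and 0.906 for Reg1, 0.950 and 0.984 for Reg2, 0.922 and 0.978 for Reg3a and 0.897 and 0.907 for the bright Reg3b probe. Reg3d gave 0.876 and 0.941 and Reg3g 0.752 and 0.838. The largest exact permutation p among the first 5 probes was 0.0145, unadjusted, so these relations do not rest on the 2 tumours. That of Reg3g with Cpa1 had an exact permutation p of 0.0655 without them. Within the 6 dimmer arrays the 4 bright Reg probes gave r between 0.986 and 0.999, and within the 6 brighter arrays between 0.988 and 0.998. CSF1Ri 1 is in both sets, so the sets are not independent, and r within a set was not computed without it. With Cpa1 and Ctrb1, Reg3d gave 0.907 and 0.917 in the dimmer and 0.953 and 0.939 in the brighter arrays. For Reg3g these were 0.772 and 0.786 in the dimmer and 0.925 and 0.907 in the brighter arrays. For the dim Reg3b probe they were 0.619 and 0.644 in the dimmer and 0.934 and 0.913 in the brighter arrays.

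**Figure D3:**
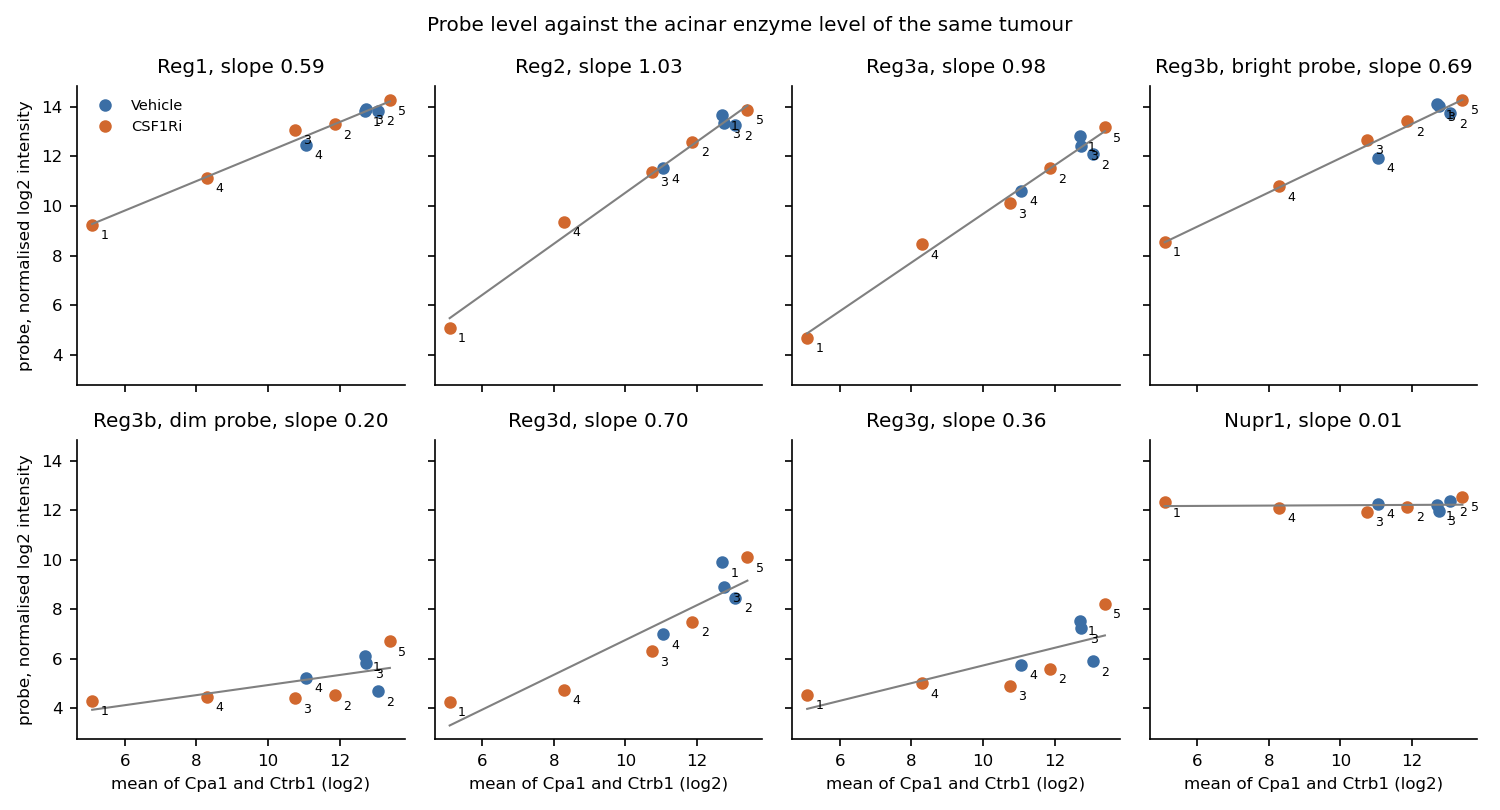
Normalised log2 intensity of each tested member probe (y axis) against the mean of Cpa1 and Ctrb1 in the same tumour (x axis, log2), with the fitted line. Points are the 9 tumours, numbered by replicate, blue for Vehicle and orange for CSF1Ri. Reg2 and Reg3a run close to 1 log2 unit per unit, Reg1 and the bright Reg3b probe less steeply, and Nupr1 is flat at 0.0068.

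A limma fit of every kept probe on the mean of Cpa1 and Ctrb1, added after the levels had been seen, gave the slope of each gene. At an adjusted p under 0.05, 5 of the 8 member probes had a positive slope (Reg1, Reg2, Reg3a, the bright Reg3b probe and Reg3d), where 0.283% of all kept probes did (47). Of these 47 probes, 23 belong to the listed acinar enzymes, the 2 reference genes among them. With the treatment as a further term 4 members passed, where 0.259% of all kept probes had a positive call, and Reg3d was lost (adjusted p = 0.0579). Without CSF1Ri 1 all 5 passed, where 0.265% of all did.

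Reg2 and Reg3a changed in step with the enzymes, Reg1 and Reg3b over a narrower range. The slope was 1.03 (95% interval 0.940 to 1.12) for Reg2 and 0.980 (0.885 to 1.07) for Reg3a, in log2 units per log2 unit of the acinar level. It was 0.594 (0.530 to 0.659) for Reg1 and 0.690 (0.602 to 0.778) for the bright Reg3b probe. Without CSF1Ri 1 the slopes were 0.899 for Reg2, 0.920 for Reg3a, 0.586 for Reg1 and 0.699 for Reg3b, so the gap between the pairs became smaller but the intervals of Reg1 (0.466 to 0.707) and Reg2 (0.779 to 1.02) still did not meet, while those of Reg3b (0.537 to 0.862) and Reg2 did. The slope was 0.702 (0.489 to 0.915) for Reg3d, and 1.02 without CSF1Ri 1, where its probe was undetected. Reg3g had a slope of 0.356 (adjusted p = 0.715), the dim Reg3b probe 0.203 (adjusted p = 1.000) and Nupr1 0.0068 (-0.055 to 0.068).

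The other 19 acinar enzymes had slopes from 0.574 to 1.09, with a median of 0.876. The Reg1 slope was higher than that of 1 of these 19, the Reg3b and Reg3d slopes higher than 2, the Reg3a slope higher than 12 and the Reg2 slope higher than 14. Reg3g and Nupr1 lay below all 19. The slopes of the 2 kinds of Reg gene are a description, since the pairs were picked by their values on these tumours. Slopes of dim probes are understated by the offset of 16 added before the log.

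**Figure D4:**
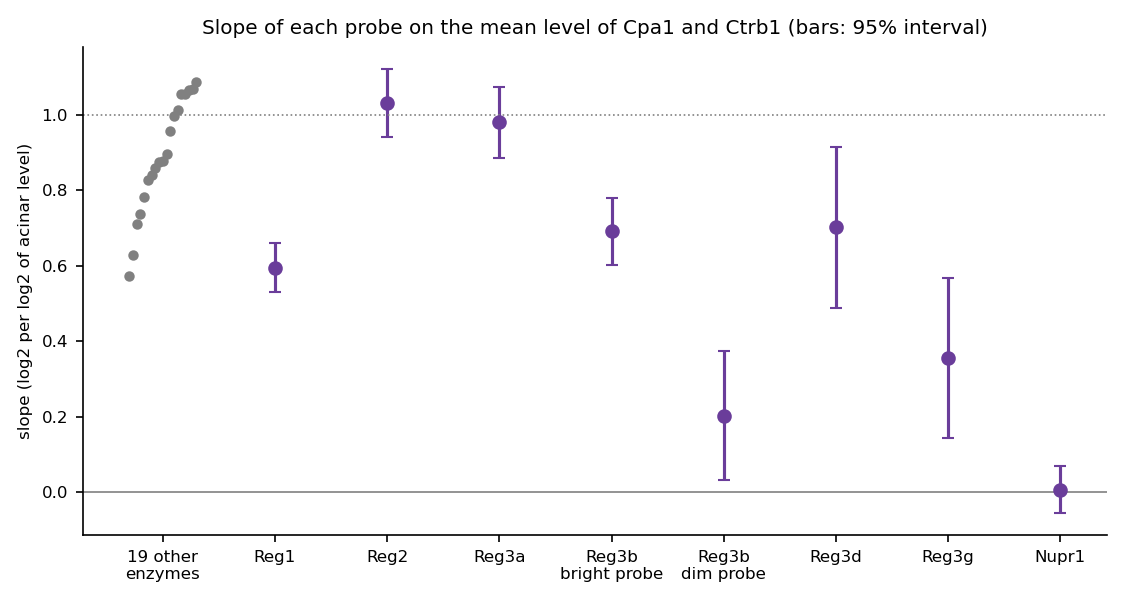
Slope of each probe on the mean log2 level of Cpa1 and Ctrb1 over 9 tumours (y axis, log2 per log2), with 95% intervals for the members and grey points for 19 other acinar enzymes. The dotted line is a slope of 1. Reg2 and Reg3a lie among the steeper enzymes, Reg1 at 0.594 is above 1 of the 19, and Nupr1 is at 0.0068.

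The gap between the 2 treated tumours at the ends of the acinar range largely restates the slopes, since both tumours are in the fits. From CSF1Ri 5 to CSF1Ri 1, Reg2 was lower by 8.80 log2 units (447-fold) and Ctrb1 by 8.76 (432-fold). Reg1 was lower by 5.01 (32.3-fold) and the bright Reg3b probe by 5.73 (52.9-fold), and both remained detected on both arrays of CSF1Ri 1. The gap was larger than that of Reg1 in 20 of the 21 enzymes, larger than that of Reg3b in 18 and larger than that of Reg2 in 5. It ran from 4.85 for Cela1 (elastase 1) to 9.05 for Cela2a (elastase 2A), and is a lower bound for the 11 enzymes not detected on both arrays of CSF1Ri 1. In CSF1Ri 5 the array held 17 kept probes brighter than Reg1 and 14 brighter than Reg3b, among 16606. A loss of steepness at the top of the scanner's range was not tested. The amylase probe of Amy2a5 was about as bright, at 13.98 to 14.19 in Vehicle and 14.16, 14.10 and 14.17 in CSF1Ri 2, 3 and 5, with a lower level in CSF1Ri 4 and 8.27 in CSF1Ri 1. Its slope was 0.629, close to those of Reg1 and Reg3b.

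Relative to the acinar level, no member gene passed the test between the groups. The log2 level of Reg1 minus the mean of Cpa1 and Ctrb1 was 1.12, 0.78, 1.16 and 1.42 in Vehicle 1 to 4 and 4.16, 1.43, 2.33, 2.86 and 0.86 in CSF1Ri 1 to 5. Of the treated tumours 4 lay above every Vehicle tumour, CSF1Ri 2 by 0.01, and CSF1Ri 5 lay among them. In CSF1Ri 1 the reference was near the limit of detection, with Cpa1 at 4.89 and Ctrb1 at 5.28. The lowest detected levels on its 2 arrays were 4.83 and 4.76, so relative levels in that tumour are uncertain. The difference was 1.21 (two-sided exact permutation p = 0.103 over 126 splits, adjusted p = 0.433 over 21 tests), and 0.75 without CSF1Ri 1. The bright Reg3b probe gave 1.39, 0.68, 1.27 and 0.90 in Vehicle and 3.48, 1.56, 1.92, 2.52 and 0.88 in CSF1Ri, with a difference of 1.01 (exact permutation p = 0.0952, adjusted p = 0.433), and 0.66 without CSF1Ri 1. The slopes of Reg1 (0.594) and the bright Reg3b probe (0.690) on the same enzymes are under 1. Their relative levels therefore rise where the enzyme level is low, and these differences are not separate from the slopes. The smallest p this design allows is 0.00794.

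For Reg2 the relative level differed by 0.04 (exact permutation p = 0.873) and for Reg3a by 0.12 (p = 0.667), with the tumours of both groups intermixed. Reg2 ranged from 0.18 to 0.95 in Vehicle and from -0.001 to 1.07 in CSF1Ri. Reg3d differed by 0.54, Reg3g by 1.57 and Nupr1 by 2.52 (exact permutation p = 0.627, 0.278 and 0.222). These differences were larger with CSF1Ri 1, where Reg3d and Reg3g were undetected. Without that tumour they were -0.08, 0.65 and 1.30, and the Reg3d sign turned. The level of Nupr1 itself differed by 0.01, and those of Cpa1 and Ctrb1 by -2.48 and -2.56. Its relative difference therefore restates that of the enzymes and says nothing of Nupr1. With the acinar level as a covariate in limma, the difference was 0.25 (SE 0.16) for Reg1, 0.31 (SE 0.23) for Reg3b, 0.14 (SE 0.25) for Reg2, 0.09 (SE 0.26) for Reg3a and -0.28 (SE 0.59) for Reg3d. None of the 8 member probes passed there (smallest adjusted p = 0.973), where 0.0482% of all kept probes did (8).

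**Figure D5:**
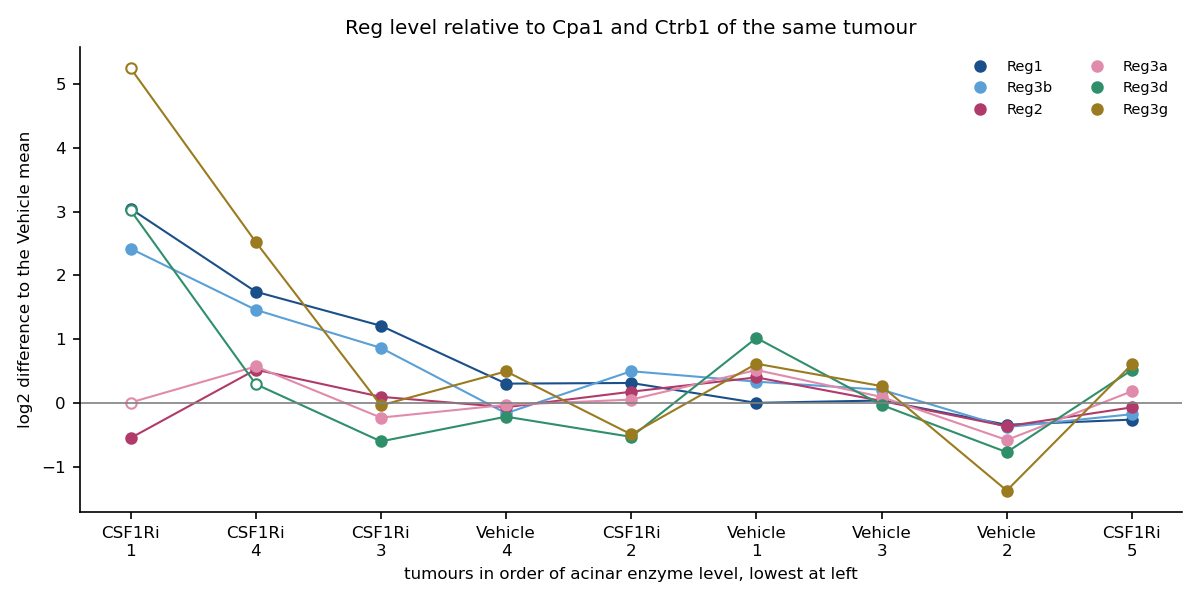
Log2 level of 6 Reg genes minus the mean of Cpa1 and Ctrb1 in the same tumour, shown as the difference from the Vehicle mean of that gene (y axis), with tumours ordered by acinar level (x axis). Open points were undetected, so the Reg level in them is an upper bound. In CSF1Ri 1 the enzyme level was itself near the limit of detection. Reg1 and Reg3b are higher in the 3 tumours with the least enzyme RNA, all CSF1Ri, and Reg2 and Reg3a stay within 1 log2 unit of the Vehicle mean. The rise of Reg1 and Reg3b in part restates their slopes under 1 on the same enzymes.

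The genes most like each member were named by Pearson's r over the 9 tumours among 9787 other named genes, as a description. For Reg1 they were Reg3b (0.994), Gp2 (0.993), Cel (0.992), Cpa1 and Ctrb1, where Gp2 is the main protein of the zymogen granule membrane and Cel a bile salt-dependent lipase. For Reg3b they were Gp2 (0.997), Reg1, Try5, Cel and Reg2. For Reg2 they were Ctrb1 (0.997), Reg3a (0.997), Pnliprp1, Cpb1 and Reg1, and for Reg3a they were Reg2, Ctrb1, Try10 (0.994), Try5 and Cpb1. Apart from Gp2, these partners are digestive enzymes, trypsinogens and lipases, or Reg genes themselves. Reg genes share much of their sequence, and whether a probe also binds another member's RNA was not tested, since no probe sequence was used here.

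Reg3d was most like the tissue kallikreins Klk1b5 (0.988), Klk1 (0.987) and Klk1b26 (0.987), followed by Cuzd1 (0.979), a zymogen granule protein, and the trypsinogen Prss2 (0.979). Reg3g was most like P2rx1 (0.953), which encodes an ATP-gated channel, followed by Cntnap5c (0.925), Reg3d (0.924), Prss2 (0.919) and Sel1l (0.898). The dim Reg3b probe and Reg3g had an r of 0.971 with each other, above the 0.638 between the 2 Reg3b probes. Nupr1 was most like Ppp6c (0.949), a phosphatase subunit, Naa30 (0.904) and Slc38a10 (0.897), followed by the autophagy genes Atg4c (0.885) and Atg2b (0.884), and its r with the other member probes was 0.38 or lower.

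The repeat hybridisations gave the technical error of each probe. Between the 2 arrays of a tumour, Reg1, Reg2, Reg3a, the bright Reg3b probe and Nupr1 differed by 0.28 or less in Vehicle 1, Vehicle 3 and CSF1Ri 1. The median over all kept probes was 0.149 to 0.187. The dim Reg3b probe was higher on the second, brighter array by 0.91 in Vehicle 1 and 1.16 in Vehicle 3, and Reg3g by 0.86 and 0.67. In CSF1Ri 1 these 2 dim probes were higher on the second array by 0.15 and 0.26. Their group differences were -0.57 for the dim Reg3b probe and -0.95 for Reg3g.

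All 21 kept of the 26 listed acinar enzymes were also lower on average in CSF1Ri, with overlapping groups, a median of -2.41 and 0 past the test, and the median was -1.36 without CSF1Ri 1. Those with the smallest p were Rnase1 (-2.69, pancreatic ribonuclease), Ctrl (-2.60, chymotrypsin-like protease) and Cela3b (-2.93, elastase 3B), with limma adjusted p from 0.690 to 0.708. The acinar transcription regulators (7 of 8 kept, 0 past the test) had a median of 0.09. Among them Rbpjl, a subunit of the acinar PTF1 complex, gave -1.18, Bhlha15, a regulator of the secretory apparatus, -0.60 and Xbp1, a regulator of the unfolded protein response, 0.15.

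Among exocrine injury and acute phase proteins 11 of 20 were kept, 0 passed the test and the median was -0.09. Spink1, the trypsin inhibitor of the pancreas, gave -2.32 (SE 1.18, limma adjusted p = 0.721) and had a slope of 0.849 on the acinar level, past the test. The metallothionein Mt2 (0.40, limma adjusted p = 0.688) had the smallest p of the list, followed by Spink1 and the trefoil factor Tff3 (-0.76). Of the 11 kept genes, Spink1 was the 1 with a slope past the test.

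The cytokine axis that feeds STAT3 gave 0 calls among 15 kept genes of 23, with a median of 0.01. Osm, the IL-6 family cytokine oncostatin M, was 6.88 ± 0.15 in Vehicle and 6.11 ± 0.42 in CSF1Ri, a difference of -0.77 (SE 0.20, limma adjusted p = 0.280). Bcl3 (0.34) and Stat3 (0.24) were next by p and did not pass. Extl3, a glycosyltransferase-like protein described as a Reg receptor, differed by 0.02 (SE 0.10). In the integrated stress response, which acts with Nupr1, 18 of 21 genes were kept, 0 passed and the median was 0.12. Vldlr, a lipoprotein receptor, gave 0.52 (adjusted p = 0.411), Ddit3, the transcription factor CHOP, 0.36 and Hmox1, heme oxygenase 1, -0.43.

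Markers of other cells were read beside these results. Csf1r, the gene of the inhibited receptor, was 7.46 ± 0.29 in Vehicle and 6.24 ± 0.32 in CSF1Ri (-1.22, SE 0.19, limma adjusted p = 0.0498). Of the 10 kept macrophage genes, 9 were lower in CSF1Ri, each with groups that did not overlap. Of these, 4 passed the test, namely Csf1r, Mrc1, Cx3cr1 and Ms4a7. Adgre1 (-1.19), C1qa (-1.53), C1qb, C1qc (-1.43) and Siglec1 were lower without passing it, and Cd14 was higher (0.23, overlapping groups). The mean over the macrophage list was 8.44 to 8.94 in Vehicle and 7.18 to 7.90 in CSF1Ri. Within the CSF1Ri group that mean was 7.61 in the tumour lowest for Reg (CSF1Ri 1) and 7.31 in the highest (CSF1Ri 5). The neutrophil list (10 kept, 0 called, median -1.73) included Mpo (-2.78), Camp (-2.74) and S100a8 (-2.27). Medians were -0.05 for islet cells (8 kept), 0.05 for duct and tumour epithelium (12), 0.36 for stomach and intestine (8), -0.14 for fibroblasts (9) and -0.26 for erythroid cells (5), with 0 calls in each. In CSF1Ri 1 and CSF1Ri 5 the means over these lists were 6.80 and 6.77 for islet cells, 10.36 and 10.82 for duct and tumour epithelium, and 8.18 and 8.93 for stomach and intestine. The part of these cells in the Reg levels was not tested.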

How the data were processed

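Total RNA of 9 tumours was measured on 12 arrays, and 1 sample title per array gave the group and replicate. Per the file headers, the authors deposited, for 45281 probes, 1 unscaled intensity per array with its detection p-value. The intensity was already background-subtracted, since it falls below 0. A further deposited table holds processed intensity, equal to the unscaled intensity times 1 factor per array (0.672 to 1.49), on a linear scale and without centring; it was used as an alternative. The scanning and scaling software: not given in the sources used here.

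Unscaled values were normalised by the neqc function of limma 3.58.1, under R 4.3.3 (background from the detection p-values, offset of 16, quantile normalisation, log2). Arrays of a tumour were averaged. Each of the 16606 kept probes was fitted with lmFit and eBayes, with Benjamini-Hochberg adjustment over all of them and a threshold of 0.05. Exact permutation tests over tumours were run in scipy 1.17.1 (Python 3.11.15). Fold changes of dim probes are understated by the offset. Gene names came from the platform annotation, which gives 34885 probes 1 symbol, 18 several and 10378 none. For lists and likeness the brightest kept probe stood for a gene (9788 genes).

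The members, the gene lists and the tests were chosen with earlier results of these data known. Named were every member probe, Cpa1, Ctrb1, Csf1r, of each list the genes past the test and the 3 with the smallest p (for some lists only the median is given), and the 5 genes most like each member. Cela1, Cela2a and Amy2a5 were named after their values were seen, as were the kept macrophage genes not past the test. On simulated data with 200 of the 16606 probes changed, the group test recovered 74% at a log2 size of 1 and 92% at a size of 2, with 6 false calls. These are shares over all changed probes. The kept Reg probes had SEs from 0.48 to 1.46, and recovery for probes this variable was not tested. Same-numbered samples of the groups deviated together only weakly (correlations -0.06, 0.08, 0.08 and 0.19), so the numbers were not taken to pair tumours. Alternatives were the processed values, another background offset, median scaling, single hybridisations, each set of arrays, no filter, 1 probe per gene, a replicate block, an acinar covariate and each tumour left out. The files name no genome build; coordinates belong to the RefSeq windows alone. Protein sequences were not used here. The number of arrays limits the precision.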

Additional observations from a re-analysis of the deposited data

Results flagged for a closer look

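A Dixon test marked 6 values whose gap to the nearest tumour was large for the spread of their group, among 34 groups of 4 or 5 tumours, where chance marks about 1 in 20. Vehicle 4 was the lowest Vehicle tumour for Reg1 (12.48, the next 13.83), for the bright Reg3b probe (11.95, the next 13.75) and for Ctrb1 (11.73, the next 13.27). In the same tumour, the level of Nupr1 relative to the mean of Cpa1 and Ctrb1 was the highest of the Vehicle group (1.20, the next -0.52). CSF1Ri 5 was the highest treated tumour for Reg3g (8.23, the next 5.60) and for the dim Reg3b probe (6.70, the next 4.54).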

How the results depend on the processing

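Under the 19 alternatives of the group comparison, 0 member probes passed the test. The number of probes lower at an adjusted p under 0.05 was 24, and 15 with median scaling, 1 within the dimmer arrays, 8 within the brighter arrays, 7 with no filter, 1 with the replicate block, 8 with the acinar covariate and 6 to 33 with 1 tumour left out. The number higher was 0, and 1 with an offset of 50, and 0 to 1 with 1 tumour left out. The replicate numbers only number the samples; with the block, Reg1 was -1.82 and Reg2 -3.34 without a call, the same estimates as without CSF1Ri 5, which has no same-numbered Vehicle tumour and so adds nothing to that fit. With the acinar covariate the sign turned for Reg1 (0.25), Reg2 (0.14), Reg3a (0.086), the bright Reg3b probe (0.31) and Ctrb1 (0.060, itself part of the covariate). Nupr1 turned to -0.024 with the authors' processed values, -0.020 with median scaling, -0.043 within the dimmer arrays and -0.077 with the block. With 1 tumour left out it ran from -0.077 to 0.075, below 0 without Vehicle 3, CSF1Ri 1 or CSF1Ri 5. Its r ran from -0.160 to 0.465 with Cpa1 and from -0.191 to 0.492 with Ctrb1, both lowest without CSF1Ri 5 and highest without CSF1Ri 1. Relative to Cpa1 and Ctrb1, Reg2 turned to -0.0040 with first hybridisations and ran from -0.087 to 0.181 with 1 tumour left out, below 0 without Vehicle 2, CSF1Ri 2 (-0.00028) or CSF1Ri 4. Reg3a ran from -0.077 (without Vehicle 2) to 0.289 and Reg3d from -0.081 (without CSF1Ri 1) to 0.879. The cause of these turns was not tested. Over single probes and relations, 476 recomputed values kept their direction and their side of the threshold, 9 came to pass it and 7 no longer did, among them the r of Reg3g without Vehicle 1, Vehicle 3 or CSF1Ri 5 (adjusted p 0.0506 to 0.0557). Undetected signal limits the dim Reg3b probe in Vehicle 2 and CSF1Ri 1 to 4, Reg3d in CSF1Ri 1 and 4, and Reg3a and Reg3g in CSF1Ri 1.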
